A study of Mus musculus with 20 samples.

Results

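RNA-seq of adult small intestinal mesenchyme compared 2 libraries labelled WT with 2 labelled EED-KO, which are 4 of the 20 samples in the series and all of its adult samples. The cells came from tamoxifen-treated mice in which Pdgfrb Cre-ERT2, a tamoxifen-inducible recombinase under the control of the Pdgfrb promoter, switches a Rosa26 mTmG reporter from membrane Tomato to membrane GFP. WT libraries came from Pdgfrb Cre-ERT2/+;Rosa26 mTmG mice, and EED-KO libraries from Pdgfrb Cre-ERT2/+;Eed fl/fl;Rosa26 mTmG mice. Both groups carry the driver and the reporter, and only the EED-KO group carries floxed alleles of Eed. The study describes its mice as of mixed strain backgrounds, so any difference in background between the groups cannot be told apart from the deletion. Villi were scraped off, epithelium was shaken off in EDTA, and viable GFP+ cells were sorted from the digested remainder. The study describes its sequencing samples as 2 biological replicates, and the labels do not say whether the 2 libraries of a group came from different animals. The p-values below set a group difference against the spread between these libraries. WT and EED-KO are used throughout as the labels of libraries.

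EED is a core subunit of Polycomb repressive complex 2 (PRC2), the enzyme complex that places the repressive mark H3K27me3, and reading of that mark by EED spreads it to neighbouring nucleosomes. In the gut wall, Pdgfrb marks pericytes and pericryptal fibroblasts, which lie under the crypts, deposit collagens and laminins, and secrete signals that keep epithelial stem cells dividing. The same tissue layer holds many resident macrophages, which display antigen on major histocompatibility complex (MHC) class II molecules, and plasma cells that make immunoglobulin A.

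The libraries held 11404712 and 12225290 counts on genes in WT and 11423651 and 15903642 in EED-KO. In WT 10.9% to 11.2% of these counts fell on the top 10 genes of a library, against 16.9% to 18.7% in EED-KO. Mitochondrial genes held 1.67% to 2.06% in WT and 0.722% to 0.781% in EED-KO. Log CPM values correlated across genes at 0.959 between the WT libraries, 0.947 between the EED-KO libraries, and 0.814 to 0.857 between groups, where CPM is the count scaled to library size after TMM normalization, a correction for differences in RNA composition. Counts were made without strand, so reads of overlapping or antisense genes cannot be told apart.

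*Eed* (chromosome 7, 89954656 to 89980983, minus strand, GRCm38) checks the labels, and it did not fall clearly. Its level was 29.7 and 33.4 CPM in WT and 25.7 and 25.0 CPM in EED-KO, so the groups did not overlap, but the difference was small (log2 fold change -0.32 ± 0.21 (SE), adjusted p = 0.32, by the quasi-likelihood test of edgeR). The 95% interval of the log2 fold change ran from -0.81 to 0.18. The counts are summed over all exons, so a transcript that lacks only the floxed exons would still be counted, and the share of cells that had recombined was not measured here. The study reports a separate measurement of *Eed* deletion efficiency in isolated pericryptal cells, against mice without the Cre driver. A gene was called where its adjusted p was under 0.05 and its log2 fold change above 1 in size, as for 19.6% of the 15039 genes tested. None of the 11 PRC2 genes was called by edgeR or by DESeq2, and 3 had an unadjusted p under 0.05. Without the first EED-KO library 1 of them, *Ezh1*, was called lower. The catalytic subunit *Ezh2* stood at 8.34 and 5.89 CPM in WT and 13.1 and 9.35 CPM in EED-KO, its paralog *Ezh1* at 55.2 and 47.2 CPM in WT and 32.0 and 25.6 CPM in EED-KO (log2 fold change -0.83 ± 0.22 (SE), adjusted p = 0.033), and the subunit *Suz12* at 12.2 and 6.38 CPM in WT and 12.04 and 12.4 CPM in EED-KO. *Jarid2*, an accessory subunit, had a log2 fold change of 0.76 ± 0.22 (SE), with an adjusted p of 0.045. Among 15 tested genes of PRC1, the complex that reads H3K27me3, only *Pcgf2* was called, from 16.4 and 14.5 CPM to 6.22 and 6.65 CPM (log2 fold change -1.26 ± 0.29 (SE), adjusted p = 0.022), and the call was lost without any one library (adjusted p = 0.063 without the second WT library, adjusted p = 0.11 without the first WT library, adjusted p = 0.064 without the second EED-KO library and adjusted p = 0.058 without the first EED-KO library).

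Of 15039 genes tested, 1856 were higher in EED-KO, or 12.3% of those tested, and 1088 were lower, or 7.23%, a total of 19.6%. These shares are the background for the counts in each group of genes. The median log2 fold change over all genes was 0.00. The count and the split depended on the scale. With libraries scaled by spike-in totals, 1154 genes were higher and 1321 lower, with a median of -0.42. With libraries scaled so that mesenchymal marker genes kept a constant level, 6197 genes (41.2%) were higher and 195 (1.3%) lower, with a median of 1.03. Fold changes and calls below are relative to all genes under TMM scaling, while sums given as a percentage of counts are not TMM-scaled. Values on the mesenchymal scale are given where they bear on a group. Their background is that scale's 41.2% higher, 1.3% lower and median of 1.03.

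**Figure D1:**
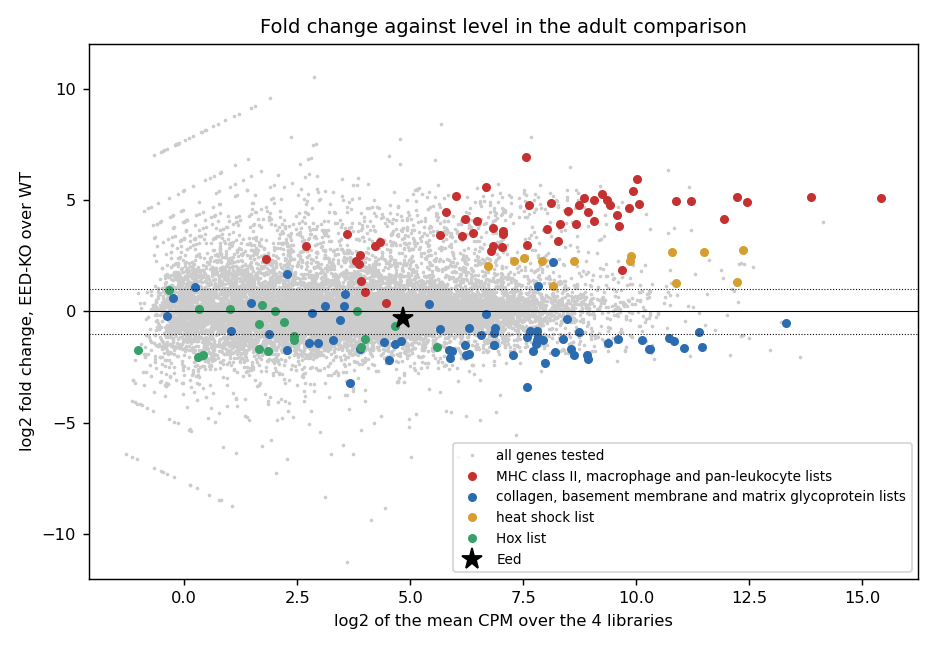
Each point is a gene, with its log2 mean CPM over the 4 libraries on the x axis and its log2 fold change, EED-KO over WT, on the y axis; dotted lines mark the fold threshold of 1. Genes of the MHC class II, macrophage and pan-leukocyte lists lie above 0, most matrix genes lie below it, and Eed (star) lies near 0 at -0.32.

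RNA of immune cells took a much larger share of the EED-KO libraries. The 11 genes of the MHC class II list took 0.407% and 0.559% of all counts in the WT libraries and 10.98% and 11.95% in the EED-KO libraries, a ratio of means of 23.8. The 25 macrophage genes took 0.118% and 0.173% in WT and 2.72% and 2.55% in EED-KO. The 20 pan-leukocyte genes rose from 0.106% and 0.113% to 0.804% and 0.695%, and 12 dendritic cell genes from 0.0206% and 0.0189% to 0.374% and 0.453%. The MHC class II and macrophage lists together, 36 genes, took 0.525% and 0.732% of counts in WT and 13.7% and 14.5% in EED-KO. For each of these sums both EED-KO libraries were above both WT libraries. An exact two-sided permutation test of 2 against 2 libraries cannot give a p under 0.333, so no p is given for them. The methods of the study name viability, GFP and light scatter as the gates of the sort. The scatter gate left out the smallest events as debris and kept many large ones, and no gate against CD45+ cells is named. No member of these 4 lists had fewer than 4 counts in any library, so immune RNA was present in the WT libraries too. In bulk RNA, more cells of a type and more RNA per cell of that type cannot be told apart.

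Markers of other cells that the tissue could contribute moved by smaller factors, or down. The 20 genes of the mesenchymal list took 4.95% and 5.26% of counts in WT and 2.13% and 1.74% in EED-KO, lower by a factor of 2.63. In TMM-scaled CPM the factor was 1.88. The sum of 19 smooth muscle genes was nearly level as a share of counts, at 0.644% and 0.667% in WT and 0.614% and 0.673% in EED-KO. In TMM-scaled CPM the smooth muscle sum was higher, at 5375 and 5713 in WT and 7041 and 8280 in EED-KO. Endothelial genes took 0.0434% and 0.0435% in WT and 0.0318% and 0.0465% in EED-KO, and these ranges overlap. Epithelial genes took 0.0848% and 0.0694% in WT and 0.391% and 0.221% in EED-KO, and *Lyz1* had 279 and 255 CPM in WT and 3945 and 2183 CPM in EED-KO. Most of the epithelial sums in EED-KO, 4481 and 2723 CPM in all, was therefore *Lyz1*. Immunoglobulin gene segments went the other way from the macrophage genes, with 1.59% and 1.45% in WT and 0.344% and 0.356% in EED-KO. Erythroid genes took 0.000140% and 0.000335% in WT and 0.000560% and 0.000434% in EED-KO, and 1 of their 8 members had enough counts to be tested.

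**Figure D2:**
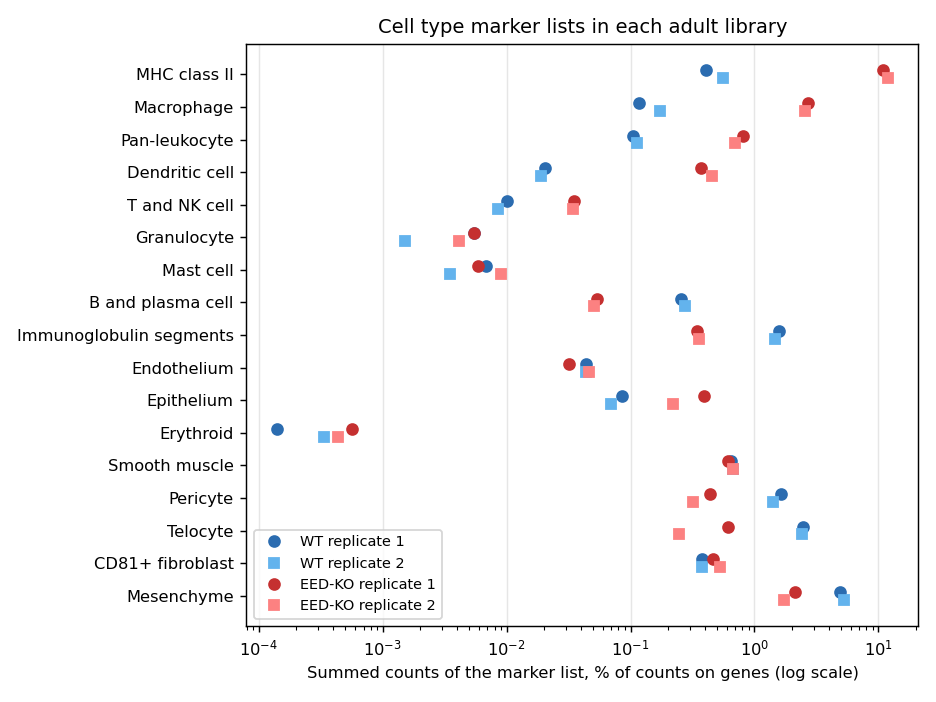
Summed counts of each marker list as a percentage of counts on genes (log scale, x axis) in each of the 4 libraries, with 1 row per list. MHC class II genes rise from 0.407% and 0.559% in WT to over 10% in EED-KO, while mesenchymal, telocyte, pericyte and immunoglobulin sums fall and the smooth muscle sum is nearly level. Most of the pericyte sum is Rgs5 and most of the telocyte sum is Adamdec1. The median log2 fold change of the 12 pericyte genes is 0.24.

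All 11 tested MHC class II genes were higher in EED-KO, with a median log2 fold change of 4.46 against 0.00 over all genes. *Cd74*, the invariant chain that occupies the peptide groove until antigen is loaded, had 2128 and 2845 CPM in WT and 77747 and 90764 CPM in EED-KO. The alpha chain gene *H2-Aa* had 265 and 448 CPM in WT and 9831 and 11676 CPM in EED-KO, and its partner *H2-Ab1* had 652 and 981 CPM in WT and 25708 and 31970.1 CPM in EED-KO. The groups were far apart for each of these genes, and replicates differed by less than 2-fold. *H2-Eb1* went from 204 and 329 CPM to 9072 and 9495 CPM (log2 fold change 5.12 ± 0.31 (SE), adjusted p = 1.24e-04). *H2-Eb2* was the most changed of the list, but the 2 EED-KO libraries differed, with 2.20 and 3.92 CPM in WT and 574 and 171 CPM in EED-KO (log2 fold change 6.92 ± 0.69 (SE), adjusted p = 7.82e-04). *Ciita*, the coactivator that drives the genes of this list, went from 3.88 and 4.76 CPM to 34.2 and 31.2 CPM (log2 fold change 2.92 ± 0.27 (SE), adjusted p = 5.60e-04). Without any one library 10 or 11 of the 11 genes were called.

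MHC class II promoters are known for a shared block of elements that ends in a CCAAT box, the Y box, usually read as ATTGG on the coding strand, close upstream of the start. It is bound by the factor NF-Y, and the coactivator CIITA acts on the block as a whole. The 120 bases just upstream of the RefSeq start (GRCm38.p6, strand of the gene) are shown for 5 members of the list because these genes moved together, with each CCAAT or ATTGG in capitals.
H2-Aa (chr17:34287824-34287943, minus strand): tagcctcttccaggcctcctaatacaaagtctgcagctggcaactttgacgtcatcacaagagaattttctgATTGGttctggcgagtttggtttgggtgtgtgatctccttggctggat
H2-Eb1 (chr17:34305747-34305866, plus strand): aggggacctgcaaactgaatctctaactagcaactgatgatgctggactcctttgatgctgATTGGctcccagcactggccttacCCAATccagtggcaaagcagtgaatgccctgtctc
H2-Eb2 (chr17:34325555-34325674, plus strand): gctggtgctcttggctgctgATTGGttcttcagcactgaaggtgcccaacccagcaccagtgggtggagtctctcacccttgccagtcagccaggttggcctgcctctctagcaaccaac
H2-DMb1 (chr17:34153071-34153190, plus strand): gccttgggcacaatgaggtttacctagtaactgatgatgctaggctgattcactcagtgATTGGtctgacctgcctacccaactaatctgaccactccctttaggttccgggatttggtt
H2-DMb2 (chr17:34145129-34145248, plus strand): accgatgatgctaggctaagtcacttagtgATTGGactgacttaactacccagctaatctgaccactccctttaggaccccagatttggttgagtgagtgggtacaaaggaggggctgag
The motif, searched on both strands, was in 7 of the 8 members of the list that have an entry in the table, and in 22.1% of all 27025 promoters over the same window. Each of the 5 sequences shown holds a match, and no member without one is shown. In the 5 sequences the first match began 48 to 100 bases before the start. A match describes letters in a window and not a bound site.

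MHC class I, which nearly all cells use to present peptides, showed no such pattern. None of its 16 tested genes was called by edgeR or by DESeq2, 5 had an unadjusted p under 0.05, and the median log2 fold change was -0.20. *B2m*, the shared light chain, had 4351 and 3987 CPM in WT and 6064 and 5079 CPM in EED-KO, and the heavy chain gene *H2-D1* had 4384 and 4281 CPM in WT and 4255 and 3422 CPM in EED-KO. For *H2-K1* the values overlapped, with 1378 and 1053 CPM in WT and 1140.2 and 974 CPM in EED-KO.

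Of the 25 macrophage genes, 23 were higher, with a median log2 fold change of 4.76, and the other two, *Mertk* and *Ly6c2*, had log2 fold changes of 0.88 and 0.37. The complement subunit genes *C1qa*, *C1qb* and *C1qc*, made in the gut mainly by macrophages, rose together. *C1qb* had 68.9 and 161 CPM in WT and 3591 and 3643 CPM in EED-KO. *C1qc* had 12.7 and 54.0 CPM in WT and 1729 and 2339.6 CPM in EED-KO (log2 fold change 5.93 ± 0.70 (SE), adjusted p = 0.0016). The second WT library was above the first for both genes, and both WT libraries were far below EED-KO. *Lyz2*, a lysozyme of myeloid cells, went from 391 and 463 CPM to 8314 and 6614 CPM, and *Cd14*, a receptor for bacterial lipopolysaccharide, from 85.6 and 62.1 CPM to 1408 and 2699 CPM. *Timd4*, a receptor for dying cells that marks long-lived resident macrophages, had 2.93 and 5.54 CPM in WT and 191 and 209.9 CPM in EED-KO (log2 fold change 5.56 ± 0.34 (SE), adjusted p = 1.26e-04).

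All 20 pan-leukocyte genes rose, with a median of 3.29. They included *Ptprc*, which encodes CD45, with 64.3 and 57.2 CPM in WT and 1077 and 925 CPM in EED-KO, and *Spi1*, the myeloid transcription factor PU.1, with 2.63 and 4.34 CPM in WT and 83.4 and 167 CPM in EED-KO. Among dendritic cell genes 7 of 12 rose. *Cd83*, a marker of activated antigen-presenting cells, had 93.2 and 95.5 CPM in WT and 3878 and 5099 CPM in EED-KO (log2 fold change 5.57 ± 0.25 (SE), adjusted p = 1.24e-04), and *Itgax*, which encodes CD11c, rose by a log2 fold change of 4.44 ± 0.26 (SE). The genes that define conventional dendritic cells did not all follow: *Flt3* had 2.05 and 1.61 CPM in WT and 1.204 and 2.09 CPM in EED-KO, and *Zbtb46* 8.78 and 7.36 CPM in WT and 5.12 and 8.81 CPM in EED-KO, both with overlapping groups. Lysosomal genes, which macrophages express strongly but every cell uses, and which share *Ctss* with the macrophage list, were higher in 16 of 24 cases and lower in none. The cathepsin gene *Ctss* went from 119.5 and 175 CPM to 4482 and 4718 CPM, *Ctsb* from 1952 and 2049.8 to 8258 and 9212 CPM, and *Psap*, the precursor of the saposins, from 2331 and 2551 to 10505 and 9077 CPM.

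Lymphoid markers moved in both directions. The T and NK cell list took 0.0100% and 0.00859% of counts in WT and 0.0348% and 0.0341% in EED-KO, with both EED-KO libraries above both WT libraries. Most of its EED-KO sums, 399 and 420 CPM, was *Cd4*, at 274 and 228 CPM. Of the 17 tested genes of the list, 14 had a log2 fold change above 0, with a median of 0.77. The 4 called higher were *Cd4*, *Gzmb*, *Klrb1c* and *Il7r*. *Cd4* had 6.00 and 13.9 CPM in WT and 274 and 228 CPM in EED-KO (log2 fold change 4.65 ± 0.42 (SE), adjusted p = 5.18e-04), while the T cell receptor subunit gene *Cd3e* had 1.76 and 3.64 CPM in WT and 3.81 and 1.31 CPM in EED-KO, with overlapping groups. The call of *Il7r*, a cytokine receptor of lymphoid cells, was lost without the second library of either group (adjusted p = 0.09 without the second WT library and adjusted p = 0.13 without the second EED-KO library). Among 13 tested B and plasma cell genes, 4 fell and 2 rose. *Igj*, the joining chain of secreted IgA, fell from 2071 and 2269 CPM to 477 and 522 CPM (log2 fold change -2.12 ± 0.19 (SE), adjusted p = 5.36e-04), and *Mzb1*, a chaperone of antibody secretion, from 28.2 and 49.2 CPM to 8.33 and 7.19 CPM. *Pou2af1*, a B cell coactivator, and *Cd79a*, a B cell receptor subunit, were the other two that fell, with log2 fold changes of -2.53 ± 0.63 and -1.23 ± 0.32 (SE). The call of *Pou2af1* was lost without the second WT or the first EED-KO library (adjusted p = 0.13 without the second WT library and adjusted p = 0.075 without the first EED-KO library), and that of *Cd79a* without any one library but the second EED-KO library (adjusted p = 0.067 without the second WT library, adjusted p = 0.15 without the first WT library and adjusted p = 0.089 without the first EED-KO library). *Cd79b* and *Cd22* rose, by 2.39 and 4.26. Of 206 tested immunoglobulin segments, which share sequence so that reads between them are uncertain, 83 fell and 5 rose.

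Granulocyte and mast cell genes were low and uneven. *S100a8*, a neutrophil gene, stood out in the first WT library, with 19.2 and 1.40 CPM in WT and 0.100 and 0.618 CPM in EED-KO, and its call was lost without that library (adjusted p = 0.35) and without either EED-KO library. *Csf3r*, the receptor for granulocyte colony-stimulating factor, rose from 1.39 and 1.89 CPM to 48.1 and 42.1 CPM. *Siglecf*, of eosinophils, was the other granulocyte gene that rose, and its call was lost in turn without 3 of the 4 libraries. No mast cell gene of 7 tested was called by edgeR, while DESeq2 called 2 higher and 1 lower, and 5 had an unadjusted p under 0.05. Among endothelial genes 4 of 17 rose (*Pecam1*, *Flt4*, *Lyve1* and *Cldn5*) and *Ramp2* fell, and 2 were higher without the second EED-KO library. *Pecam1*, an adhesion molecule that leukocytes also carry, went from 41.9 and 35.5 CPM to 91.6 and 118 CPM, while the endothelial cadherin gene *Cdh5* had 5.71 and 5.395 CPM in WT and 6.12 and 9.74 CPM in EED-KO and was not called. Epithelial genes were higher in 3 of 19 cases, *Lyz1*, *Alpi* (adjusted p = 0.06 without the first EED-KO library) and *Cdx1*. These 3 of 19 are close to the 12.3% of all genes called higher. *Lyz1*, the lysozyme of Paneth cells, is a close paralog of *Lyz2*, so the split of reads between them is uncertain. The Paneth cell defensin *Defa24* had 365 and 188 CPM in WT and 369 and 317 CPM in EED-KO, and the pan-epithelial *Epcam* 3.29 and 8.06 CPM in WT and 8.03 and 3.63 CPM in EED-KO, both with overlapping groups. Of 8 tested genes of enteric glia and neurons *Elavl4* rose and *Ednrb* fell. *Gja1* fell among 6 genes of interstitial cells of Cajal, and *Gpm6a* among 7 mesothelial genes, a call lost without any one library (adjusted p = 0.21 without the second WT library, adjusted p = 0.088 without the first WT library, adjusted p = 0.16 without the second EED-KO library and adjusted p = 0.055 without the first EED-KO library).

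**Figure D3:**
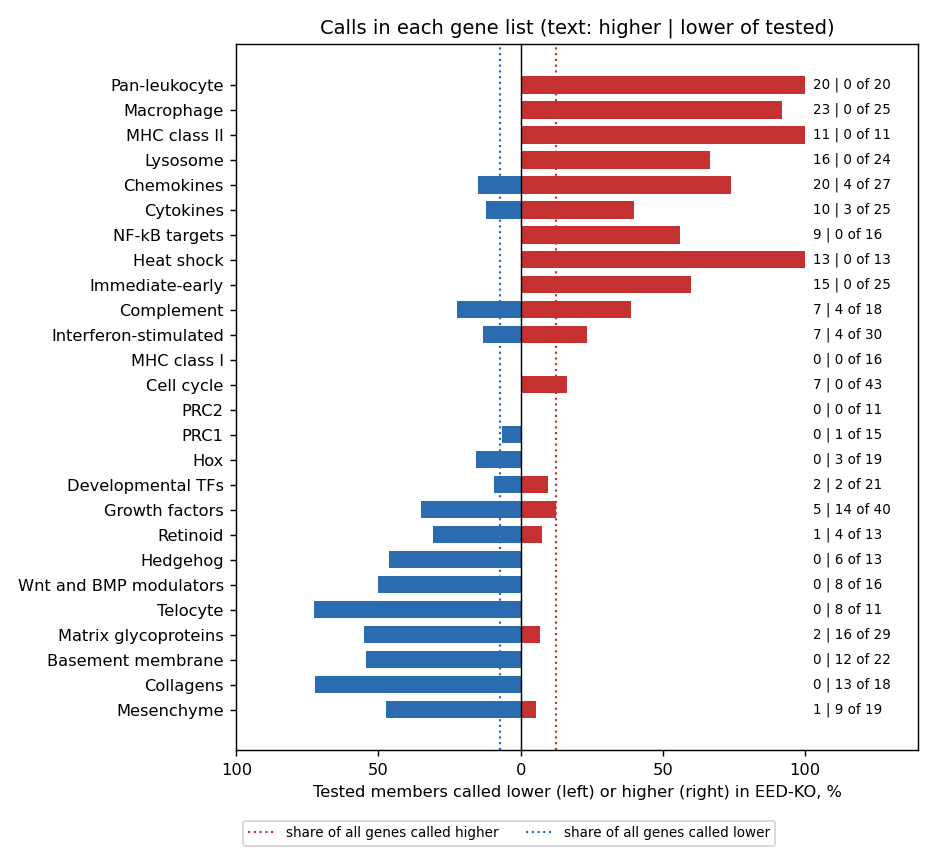
For each gene list, bars give the percentage of tested members called higher (right, red) or lower (left, blue) in EED-KO, with counts at the right edge. Dotted lines mark the shares over all genes, 12.3% higher and 7.23% lower, and the pan-leukocyte, MHC class II and heat shock lists are higher throughout while collagens and telocyte genes are mostly lower.

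Genes that define the stroma were lower in large part. In the mesenchymal list 9 of 19 tested genes fell and 1, the microfibril gene *Mfap5* (adjusted p = 0.097 without the first WT library and adjusted p = 0.051 without the second EED-KO library), rose, with a median log2 fold change of -0.997. *Pdgfrb*, the gene whose promoter drives the Cre, had 162 and 124 CPM in WT and 89.2 and 92.8 CPM in EED-KO (log2 fold change -0.65 ± 0.21 (SE), adjusted p = 0.062), so it was lower in both EED-KO libraries without passing the test. *Pdgfra*, the receptor that marks subepithelial fibroblasts, fell from 1153 and 917 CPM to 327 and 269.5 CPM (log2 fold change -1.79 ± 0.22 (SE), adjusted p = 0.0018). *Tcf21*, a transcription factor of visceral fibroblasts, fell from 380.2 and 409 CPM to 100.8 and 67.0 CPM. The proteoglycan *Dcn* had 10960.3 and 12894 CPM in WT and 8064 and 8802 CPM in EED-KO and was not called. The immune sums above moved with the same 2 libraries, and their part in the fall of stromal genes was not tested. On the scale that holds the mesenchymal list level, 1 of its 19 tested genes was lower and 2 were higher.

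Genes of telocytes, the Pdgfra-high fibroblasts beneath the epithelium, were lower in 8 of 11 cases, with a median of -2.05, and 5 of the 11 were lower on the mesenchymal scale, where their median was -1.07. Without the first WT library 5 of the 11 were lower. *Adamdec1*, a secreted protease of lamina propria fibroblasts, had 19969.5 and 20427 CPM in WT and 6863 and 2863 CPM in EED-KO. *Edn3*, an endothelin needed by enteric neural crest cells, had 38.2 and 29.4 CPM in WT and 5.82 and 4.64 CPM in EED-KO (log2 fold change -2.69 ± 0.29 (SE), adjusted p = 9.71e-04). *Ntf3*, a neurotrophin, fell from 115 and 112 CPM to 28.9 and 24.6 CPM (log2 fold change -2.09 ± 0.20 (SE), adjusted p = 5.92e-04). Both EED-KO libraries were below both WT libraries for each of the 3 genes. *Foxl1*, a defining transcription factor of these cells, was sparse, with 3.73 and 3.78 CPM in WT and 0.803 and 1.01 CPM in EED-KO, and its call was lost without any one library (adjusted p = 0.13 without the second WT library, adjusted p = 0.13 without the first WT library, adjusted p = 0.091 without the second EED-KO library and adjusted p = 0.095 without the first EED-KO library).

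The genes of CD81+ and adventitial fibroblasts split. *Cd81*, *Dpp4*, *Pi16* and *Ebf1* (adjusted p = 0.057 without the first WT library and log2 fold change 0.93 without the second EED-KO library) rose and *Igf1* and *Clec3b* fell, of 11 tested. *Cd81*, a tetraspanin also present on immune cells, had 192 and 317 CPM in WT and 3218 and 3559 CPM in EED-KO (log2 fold change 3.74 ± 0.30 (SE), adjusted p = 3.22e-04). *Pi16*, a marker of adventitial fibroblasts, had 23.6 and 25.2 CPM in WT and 61.9 and 141 CPM in EED-KO, with a spread between the EED-KO libraries of over 2-fold. *Clec3b*, tetranectin, fell from 515 and 506 CPM to 227 and 231 CPM. Among 12 pericyte genes, *Rgs5*, a regulator of G protein signalling, fell from 13184 and 11315 CPM to 4333 and 3069 CPM (log2 fold change -1.73 ± 0.24 (SE), adjusted p = 0.0031). The potassium channel subunits *Kcnj8* and *Abcc9* fell with it, with log2 fold changes of -1.71 ± 0.21 and -1.11 ± 0.24 (SE), and the call of *Abcc9* was lost without the first library of either group (adjusted p = 0.097 without the first WT library and adjusted p = 0.05 without the first EED-KO library). The remaining 9 were not called, and the median of the list was 0.24. Contractile genes of smooth muscle were higher in 3 of 19 cases, *Myh11*, *Actg2* and *Cnn1*, and none was called higher without the second EED-KO library and 1 without the first WT library. The count of 3 of 19 is close to the 12.3% of all genes called higher. On the scale of spike-in totals, where the median of all genes was -0.42, none of the 19 was higher. *Myh11*, the smooth muscle myosin, had 297 and 245 CPM in WT and 517 and 599 CPM in EED-KO.

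**Figure D4:**
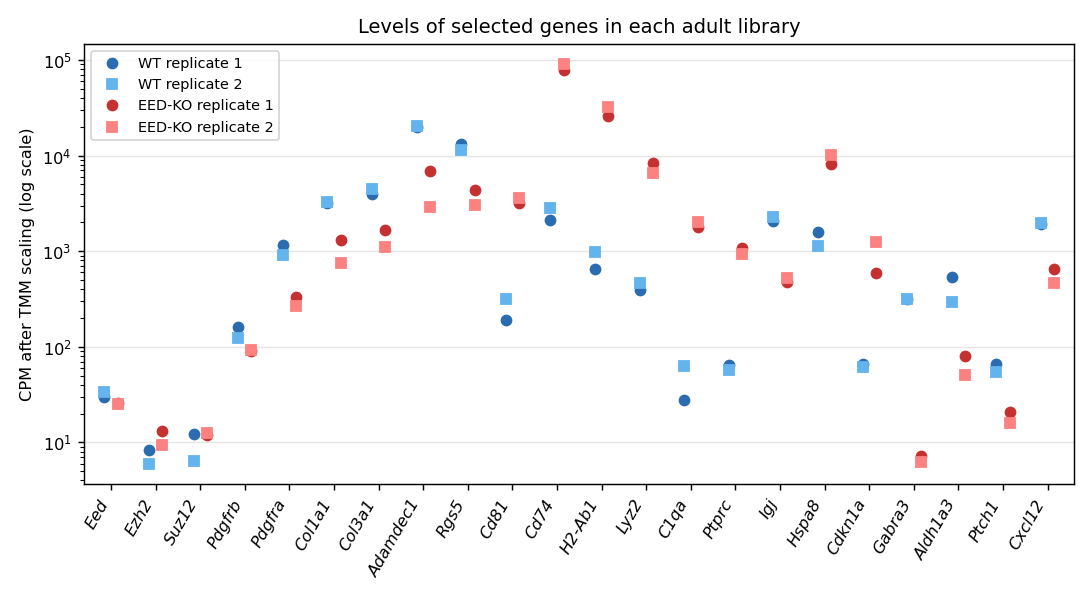
CPM after TMM scaling (log axis) of 22 genes in each of the 4 libraries, WT on the left and EED-KO on the right of each gene. Eed, Ezh2 and Suz12 lie close together in both groups, stromal genes such as Pdgfra, Col1a1 and Adamdec1 lie lower in EED-KO, and Cd74, H2-Ab1, Lyz2, C1qa and Ptprc lie higher.

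Genes of the extracellular matrix were lower in each of its classes, on the scale of all genes. Collagens were lower in 13 of 18 cases and higher in none, with a median of -1.49, and 13 or 14 were lower without any one library. *Col1a1* had 3167 and 3269 CPM in WT and 1312 and 743 CPM in EED-KO, and *Col3a1* had 3929.9 and 4453 CPM in WT and 1665 and 1094 CPM in EED-KO. These are the main fibril-forming chains of the gut wall, and the first EED-KO library was above the second for both. *Col6a5*, a chain of the microfibrillar type VI collagen, changed most, from 405 and 291 CPM to 50.8 and 14.8 CPM (log2 fold change -3.41 ± 0.55 (SE), adjusted p = 0.0056). On the mesenchymal scale the collagen median was -0.49 with 1 gene higher and 1 lower. Over all genes on that scale the median was 1.03 and 41.2% were higher. The mesenchymal list that sets the scale includes *Col1a1*, *Col1a2* and *Col3a1*. It also shares *Dcn* and *Mfap5* with the matrix glycoproteins and *Pcolce* with the collagen-modifying enzymes. Values of these classes on that scale are therefore partly built in.

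Basement membrane genes were lower in 12 of 22 cases, with a median of -1.15. On the mesenchymal scale 4 were higher and 2 lower, against 41.2% higher and 1.3% lower over all genes. *Lamb1*, a laminin beta chain, fell from 672 and 576 CPM to 188 and 135 CPM (log2 fold change -1.95 ± 0.23 (SE), adjusted p = 0.0017). *Lama1*, the alpha chain of laminin-111, had 24.8 and 20.8 CPM in WT and 3.51 and 1.55 CPM in EED-KO. *Nid2*, a nidogen that links laminin and collagen IV, had 42.4 and 32.9 CPM in WT and 9.84 and 6.88 CPM in EED-KO. Of 29 matrix glycoproteins 16 fell, and *Thbs1* and *Mfap5* rose, against 2 lower and 3 higher on the mesenchymal scale. *Tnc*, tenascin C, fell from 372 and 473 CPM to 117 and 52.1 CPM, and *Efemp1*, a fibulin, from 864 and 726 CPM to 199.6 and 165 CPM (log2 fold change -2.12 ± 0.21 (SE), adjusted p = 7.90e-04). *Thbs1*, an early-induced thrombospondin, went the other way, from 110.4 and 90.8 CPM to 339 and 599.9 CPM. Collagen-modifying enzymes were lower in 5 of 17 cases, among them *Serpinh1*, the collagen chaperone HSP47, which had 5544 and 8208 CPM in WT and 2092 and 1412 CPM in EED-KO (log2 fold change -1.97 ± 0.29 (SE), adjusted p = 0.0039). These enzymes were lower in 8 cases without the first EED-KO library, and on the mesenchymal scale 3 were higher and none was lower.

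Matrix proteases and their inhibitors went both ways. Of 20 tested, 6 rose, among them *Mmp13*, *Mmp9*, *Mmp12*, *Plau* and *Adamts1*, and *Mmp2*, *Mmp3*, *Mmp10* and *Mmp11* fell. *Mmp13*, a collagenase, had 5.56 and 10.9 CPM in WT and 789.8 and 681 CPM in EED-KO (log2 fold change 6.48 ± 0.39 (SE), adjusted p = 1.24e-04). *Mmp9*, a gelatinase of myeloid cells, had 3.37 and 14.4 CPM in WT and 404 and 306 CPM in EED-KO, and *Mmp12*, the macrophage elastase, 3.37 and 2.73 CPM in WT and 74.2 and 133 CPM in EED-KO. *Mmp2*, the gelatinase of fibroblasts, fell from 1838 and 1992 CPM to 746 and 598 CPM, and the stromelysin *Mmp10* from 1536 and 979.5 CPM to 361 and 178 CPM. Without any one library 6 or 7 genes were higher and 4 lower.

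Chemokines mostly rose. Of 27 tested, 20 rose and 4 fell, with a median of 3.13. The 4 that fell are known products of stromal cells. *Cxcl12*, the ligand of CXCR4, fell from 1919 and 1957 CPM to 650.2 and 469.9 CPM (log2 fold change -1.79 ± 0.22 (SE), adjusted p = 0.002), and *Ccl11*, eotaxin, from 1560.5 and 1084 CPM to 431 and 439 CPM. *Cxcl14* and *Cxcl13* fell with log2 fold changes of -1.78 ± 0.20 and -1.24 ± 0.30 (SE), and the call of *Cxcl13* was lost without the first library of either group (adjusted p = 0.11 without the first WT library and adjusted p = 0.069 without the first EED-KO library). Among those that rose, *Ccl7*, a monocyte attractant, went from 52.5 and 53.7 CPM to 998 and 2184 CPM. *Ccl4*, a product of activated macrophages, went from 13.54 and 27.6 CPM to 691 and 938 CPM, and *Ccl24* from 0.951 and 2.10 CPM to 55.6 and 87.1 CPM. *Ccl17* had 3 counts in all over the WT libraries and 115 in EED-KO, a 46.8-fold ratio (95% counting interval 15.6 to 230.1).

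Cytokines were higher in 10 of 25 cases and lower in 3. *Il10*, the anti-inflammatory product of gut macrophages, had 0.366 and 3.36 CPM in WT and 83.7 and 108 CPM in EED-KO, and *Il1b* 46.5 and 23.6 CPM in WT and 329.9 and 339 CPM in EED-KO. *Il1rn*, the antagonist of the interleukin 1 receptor, went from 17.9 and 9.11 CPM to 355 and 712 CPM (log2 fold change 5.31 ± 0.49 (SE), adjusted p = 5.54e-04). The 3 that fell were *Csf1* and *Il34*, which are the 2 ligands of the receptor that macrophages need to survive, and *Tnfsf13b*, a B cell survival factor. *Csf1* fell from 223 and 193 CPM to 88.8 and 64.5 CPM (log2 fold change -1.44 ± 0.23 (SE), adjusted p = 0.0052), *Il34* from 48.3 and 45.3 CPM to 18.4 and 25.1 CPM, and *Tnfsf13b* from 94.0 and 88.4 CPM to 53.2 and 36.3 CPM. Only *Csf1* of these was called lower without the first WT library. The receptor gene of *Csf1* and *Il34*, *Csf1r*, rose from 20.9 and 44.2 CPM to 1089.8 and 984 CPM.

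Targets of NF-kB, which answers to cytokines and bacterial products, were higher in 9 of 16 cases and lower in none. *Nfkbia*, the inhibitor that NF-kB induces against itself, rose from 273 and 212 CPM to 826 and 1273 CPM, and *Rel*, a subunit of leukocytes, from 11.8 and 8.41 CPM to 149 and 147 CPM. The adhesion molecule *Vcam1* had 336 and 308 CPM in WT and 269 and 222 CPM in EED-KO and was not called. Interferon-stimulated genes were split, with 7 of 30 higher and 4 lower. *Rsad2*, an antiviral enzyme, rose from 6.95 and 5.18 CPM to 105 and 85.5 CPM, while *Iigp1*, a GTPase against intracellular bacteria, fell from 844 and 729 CPM to 239 and 201 CPM (log2 fold change -1.84 ± 0.21 (SE), adjusted p = 0.0012). The lower calls numbered 1 without the first WT library, 1 without the second EED-KO library and 2 without the second WT library. Of 18 complement genes the C1q chains, *Cfp*, *C3ar1*, *C5ar1* and *C6* rose, and *C1ra*, *C1s1*, *C4b* and *C7* fell. *C1s1*, a protease of the C1 complex, had 1324 and 1202 CPM in WT and 675 and 534 CPM in EED-KO (adjusted p = 0.053 without the first WT library and log2 fold change -0.91 without the second EED-KO library), opposite in direction to the C1q chains that it works with.

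Beyond the ligands themselves, extracellular modulators of Wnt and BMP signalling were lower in 8 of 16 cases and higher in none, with a median of -1.07. *Sfrp1*, a secreted Wnt antagonist, fell from 1716 and 1686 CPM to 849 and 496 CPM, and *Dkk2* from 153 and 153 CPM to 60.9 and 26.4 CPM. *Frzb*, another Wnt-binding antagonist, differed between the EED-KO libraries, with 47.9 and 53.4 CPM in WT and 12.8 and 2.24 CPM in EED-KO (log2 fold change -2.77 ± 0.66 (SE), adjusted p = 0.025). *Wif1* fell from 28.0 and 13.7 CPM to 1.91 and 4.25 CPM. *Rspo3*, which amplifies Wnt signals at the crypt base, fell from 30.0 and 23.3 CPM to 12.2 and 13.1 CPM, a call lost without the first WT library or either EED-KO library (adjusted p = 0.13 without the first WT library, adjusted p = 0.064 without the second EED-KO library and adjusted p = 0.062 without the first EED-KO library). The BMP antagonist *Grem1* had 86.0 and 89.5 CPM in WT and 63.1 and 79.4 CPM in EED-KO and was not called. On the mesenchymal scale 3 of the 16 were higher and 2 lower, against 41.2% higher and 1.3% lower over all genes.

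Components and targets of the Hedgehog pathway, by which the epithelium instructs the mesenchyme, were lower in 6 of 13 cases, with a median of -1.70. The receptor *Ptch1*, itself a target of the pathway, fell from 66.3 and 54.7 CPM to 20.9 and 16.003 CPM (log2 fold change -1.72 ± 0.23 (SE), adjusted p = 0.0028), and the repressor *Gli3* from 24.3 and 13.52 CPM to 5.92 and 5.49 CPM. Other abundant members were not called. *Hhip* had 62.4 and 70.3 CPM in WT and 62.3 and 47.9 CPM in EED-KO, and *Foxf1* had a log2 fold change of -0.54 (adjusted p = 0.16). Of the 13 genes 1 was lower without the first WT library and 3 without the second EED-KO library. The call of *Gli3* was lost without either of these (adjusted p = 0.11 without the first WT library and adjusted p = 0.067 without the second EED-KO library). On the mesenchymal scale 1 was higher and none lower. Of 13 tested retinoid genes 4 were lower, 1 was higher and 8 were not called. On the mesenchymal scale 2 were lower and 4 higher, with a median of 0.62. Over all genes on that scale 1.3% were lower, 41.2% were higher and the median was 1.03. The 4 genes lower under TMM scaling encode enzymes that make retinoic acid or its precursor. *Aldh1a3* had 531 and 292 CPM in WT and 79.1 and 50.3 CPM in EED-KO, *Aldh1a1* 384 and 340.0 CPM in WT and 126 and 136 CPM in EED-KO, and *Rdh10*, which makes the retinaldehyde they use, 106 and 79.3 CPM in WT and 24.2 and 18.0 CPM in EED-KO (log2 fold change -2.14 ± 0.25 (SE), adjusted p = 0.0015). *Aldh1a2* was the other one that fell, with a log2 fold change of -1.29 ± 0.22 (SE). *Dhrs3*, which turns retinaldehyde back into retinol, rose from 169.6 and 235 CPM to 573 and 842 CPM (log2 fold change 1.81 ± 0.27 (SE), adjusted p = 0.0042). The 4 that fell and *Dhrs3* were called without each library in turn.

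Of 40 tested growth factors, 14 fell and 5 rose, with a median of -0.63, against 7.23% and 12.3% of all genes. On the mesenchymal scale 4 were lower and 14 higher, with a median of 0.44. Over all genes on that scale 1.3% were lower, 41.2% were higher and the median was 1.03. *Igf1* fell from 536 and 439 CPM to 258 and 216 CPM, a call lost without the first WT or the second EED-KO library (adjusted p = 0.077 without the first WT library and log2 fold change -0.92 without the second EED-KO library). The matricellular *Cyr61*, a target of YAP, fell from 1147 and 1507 CPM to 437 and 334 CPM (log2 fold change -1.78 ± 0.24 (SE), adjusted p = 0.0026). *Pgf*, placental growth factor, rose from 79.5 and 82.3 CPM to 476 and 737 CPM, *Hbegf* from 8.20 and 8.55 CPM to 69.0 and 116 CPM, and *Pdgfb*, a ligand of the receptor encoded by *Pdgfrb*, from 0.366 and 1.26 CPM to 6.72 and 12.1 CPM. *Pdgfa* and *Pdgfc* also rose, by 1.43 and 2.05 on the log2 scale, and the call of *Pdgfb* was lost without the second EED-KO library (adjusted p = 0.05 without the second EED-KO library). Among 25 genes of axon guidance and neurotrophins 6 fell and 3 rose, against 7.23% and 12.3% of all genes. The 3 that rose are thus close to the share of all genes called higher. On the mesenchymal scale 1 was lower and 8 were higher, with a median of 0.62, against 1.3%, 41.2% and 1.03 over all genes. *Bdnf* rose from 13.0 and 12.3 CPM to 94.6 and 134 CPM (log2 fold change 3.18 ± 0.24 (SE), adjusted p = 2.86e-04), opposite to its relative *Ntf3*. The guidance genes that fell numbered 2 to 5 without any one library. Prostaglandin genes were evenly split, with 3 higher and 3 lower of 15. The cyclooxygenase *Ptgs2* rose from 62.3 and 49.5 CPM to 354 and 399.5 CPM, and *Pla2g4a*, the phospholipase that frees its substrate, fell from 447 and 429 CPM to 232 and 152 CPM (log2 fold change -0.92 without the second EED-KO library).

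Genes that PRC2 is known to silence in other settings did not rise as groups. PRC2 holds *Hox* clusters and many developmental regulators off where they are not needed. Of 39 *Hox* genes in the files 19 were expressed enough to be tested, 3 were lower and none was higher by edgeR, 4 were lower and none was higher by DESeq2, 9 had an unadjusted p under 0.05, and the median was -1.12. *Hoxc4* fell from 76.5 and 67.5 CPM to 25.7 and 21.96 CPM (log2 fold change -1.60 ± 0.20 (SE), adjusted p = 0.0022), its neighbour *Hoxc5* from 24.1 and 21.0 CPM to 8.83 and 6.34 CPM, and *Hoxd8* from 5.49 and 5.68 CPM to 1.61 and 1.62 CPM. The call of *Hoxd8* was lost without any one library (adjusted p = 0.13 without the second WT library, adjusted p = 0.12 without the first WT library, adjusted p = 0.093 without the second EED-KO library and adjusted p = 0.071 without the first EED-KO library). On the mesenchymal scale 1 *Hox* gene was higher, none was lower, and the median was -0.05, against 41.2%, 1.3% and 1.03 over all genes. Of 109 developmental transcription factors outside the *Hox* clusters only 21 were tested, and 37 had no count in any library. Among the 21, *Runx1* and *Runx3* rose and *Foxf2* and *Sox9* fell. *Runx3*, which is expressed in lymphoid and myeloid cells, went from 5.42 and 2.59 CPM to 34.3 and 54.5 CPM, and *Runx1* from 29.0 and 15.8 CPM to 63.2 and 73.5 CPM. The forkhead gene *Foxf2* fell from 26.3 and 14.8 CPM to 4.21 and 6.57 CPM, a call lost without the first library of either group (adjusted p = 0.081 without the first WT library and adjusted p = 0.052 without the first EED-KO library), and *Sox9*, at 55.7 and 48.8 CPM in WT and 24.0 and 22.1 CPM in EED-KO, was called lower as well.

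The cell cycle inhibitor *Cdkn2a*, a known Polycomb target, was too sparse to test, with 0 counts in both WT libraries and 4 and 3 counts in the EED-KO libraries. *Cdkn1a*, which encodes p21, rose from 66.6 and 61.4 CPM to 590.4 and 1232 CPM (log2 fold change 3.83 ± 0.37 (SE), adjusted p = 7.09e-04), and *Cdkn2c* fell from 23.7 and 23.5 CPM to 11.3 and 7.499 CPM, a call that was lost in 3 of the 4 fits without a library (adjusted p = 0.055 without the second WT library, adjusted p = 0.059 without the first WT library and adjusted p = 0.063 without the second EED-KO library). Cell cycle genes were higher in 7 of 43 cases, close to the background share, but the EED-KO libraries differed. Without the second one 19 genes were called higher, and without the first one, or without the first WT library, 4 were. *Pcna*, the replication clamp, rose in both, from 42.3 and 48.7 CPM to 112 and 121 CPM (log2 fold change 1.36 ± 0.19 (SE), adjusted p = 0.0032), and so did *E2f1*, from 1.76 and 2.10 CPM to 15.9 and 12.8 CPM. *Top2a*, a marker of dividing cells, had 10.9 and 16.05 CPM in WT and 68.6 and 16.003 CPM in EED-KO and was not called. Among 18 tested imprinted genes, *Peg3*, *Meg3* and *Grb10* fell and *Impact* rose, the last a call lost without the second library of either group (adjusted p = 0.075 without the second WT library and adjusted p = 0.07 without the second EED-KO library). *Hmga1* was the only gene higher among 3 tested oncofetal genes. *Meg3*, a maternally expressed non-coding RNA, had 42.0 and 32.4 CPM in WT and 7.73 and 10.1 CPM in EED-KO (log2 fold change -2.05 ± 0.27 (SE), adjusted p = 0.0025).

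Genes of the response to stress were higher. All 13 heat shock genes rose, with a median of 2.26. *Hspa8*, the constitutive HSP70, had 1593 and 1133 CPM in WT and 8176 and 10187 CPM in EED-KO, and the inducible *Hspa1a* had 762 and 819 CPM in WT and 5693 and 4251 CPM in EED-KO (log2 fold change 2.65 ± 0.23 (SE), adjusted p = 4.36e-04). *Hspa1a* and *Hspa1b* are near-identical copies, so the split between them is uncertain. *Hspa5*, the chaperone of the endoplasmic reticulum, rose from 2684 and 2756 CPM to 5797 and 7877 CPM. On the scale of spike-in totals, where the median of all genes was -0.42, 10 of the 13 were called higher. Without any one library 12 or 13 were higher.

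Heat shock factor binds inverted repeats of the unit nGAAn. The 120 bases upstream of the RefSeq start are shown for 4 of these genes because the list moved as 1 group, with each GAANNTTC or TTCNNGAA in capitals.
Hspa1a (chr17:34972157-34972276, minus strand): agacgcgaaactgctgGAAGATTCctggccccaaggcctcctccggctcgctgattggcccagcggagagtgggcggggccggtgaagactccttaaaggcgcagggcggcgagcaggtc
Hsph1 (chr5:149636337-149636456, minus strand): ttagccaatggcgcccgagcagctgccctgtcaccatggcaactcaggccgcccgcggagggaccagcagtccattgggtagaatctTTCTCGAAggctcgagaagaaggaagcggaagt
Hspe1 (chr1:55088028-55088147, plus strand): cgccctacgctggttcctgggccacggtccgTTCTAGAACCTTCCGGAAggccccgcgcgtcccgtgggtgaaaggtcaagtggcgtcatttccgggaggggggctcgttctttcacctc
Hspb1 (chr5:135887799-135887918, plus strand): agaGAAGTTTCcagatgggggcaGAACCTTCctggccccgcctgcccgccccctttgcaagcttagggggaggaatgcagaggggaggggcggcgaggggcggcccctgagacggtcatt
Either motif, each the same on both strands, was in 5 of the 10 heat shock genes with an entry in the table and in 6.31% of all 27025 promoters over this window. Each gene shown above holds a match, and no gene without one is shown. *Hspe1* holds 3 overlapping matches. *Hsph1*, *Hspe1* and *Hspb1* had log2 fold changes of 2.24, 2.39 and 2.04, and *Dnaja1*, which has no match in the window, had 2.28.

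Immediate-early genes, transcribed within minutes of a stimulus, were higher in 15 of 25 cases and lower in none. The best known of them were not called, since *Fos* had 1552 and 1558 CPM in WT and 1854 and 1894 CPM in EED-KO, and *Jun* had 1290.0 and 1351 CPM in WT and 1085 and 1029 CPM in EED-KO. *Maff* rose from 13.4 and 13.7 CPM to 71.0 and 133 CPM, *Egr2* from 9.66 and 16.2 CPM to 64.7 and 119.5 CPM, and the phosphatase *Dusp1* from 888 and 1149 CPM to 2040.4 and 2882 CPM (adjusted p = 0.055 without the first WT library). Genes of the mitochondrial genome were lower in 5 of 13 cases. *mt-Cytb*, cytochrome b, had 9089.7 and 6956 CPM in WT and 3398 and 3606 CPM in EED-KO (log2 fold change -1.20 ± 0.21 (SE), adjusted p = 0.008), and *mt-Co3* was high in the first WT library alone, with 43.9 and 3.71 CPM in WT and 1.00 and 1.24 CPM in EED-KO. None of the 13 was called lower without that library, and 2 were without the second EED-KO library. Glycolysis genes were higher in 3 of 16 cases, the hexokinase *Hk2* (10.3 and 9.39 CPM in WT and 80.1 and 138 CPM in EED-KO), the glucose transporter *Slc2a1* and the enolase *Eno1* (adjusted p = 0.063 without the first WT library). Sterol synthesis genes showed 3 higher, among them *Msmo1* and *Idi1*, and 2 lower, *Sqle* and *Mvk*, of 19. These counts are close to the 12.3% and 7.23% of all genes, and the median of the list was -0.04. The calls of *Msmo1* and *Idi1* were lost without the first WT or the second EED-KO library, and that of *Idi1* also without the second WT library. The call of *Mvk* was lost without any one library (adjusted p = 0.11 without the second WT library, adjusted p = 0.13 without the first WT library, adjusted p = 0.095 without the second EED-KO library and adjusted p = 0.063 without the first EED-KO library).

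Several of the most changed genes outside these lists were almost absent from 1 group. *Naip2*, an inflammasome sensor of bacterial proteins, had no count in WT and 319 counts in EED-KO, which is at least 129.7-fold higher against a floor of 3 counts over the group. *Mrap2*, an accessory protein of melanocortin receptors, had 977 counts over the WT libraries and 1 in EED-KO, an 801-fold ratio (95% counting interval 143 to 31662.5). It stood at 36.3 and 33.7 CPM in the WT libraries. *Gabra3*, a subunit of the GABA-A receptor, fell from 314 and 319 CPM to 7.23 and 6.26 CPM (log2 fold change -5.55 ± 0.23 (SE), adjusted p = 1.24e-04), with each pair of replicates close. *Pcdh9*, a protocadherin, fell from 45.2 and 33.1 CPM to 0.401 and 2.47 CPM, and *Chil1* from 27.0 and 21.7 CPM to 0.602 and 3.71 CPM. *Trim12a* fell from 36.1 and 24.5 CPM to 2.51 and 1.31 CPM. It belongs to a cluster of near-identical genes, as *Naip2* does, so reads can be split between copies.

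Among the genes that rose most, *Clec1b*, a C-type lectin receptor of platelets and myeloid cells, had 0.805 and 0.841 CPM in WT and 92.4 and 93.5 CPM in EED-KO (log2 fold change 6.80 ± 0.25 (SE), adjusted p = 1.24e-04). *Dnase1l3*, a nuclease secreted by macrophages and dendritic cells, rose from 27.7 and 53.7 CPM to 3144 and 3414 CPM, and the osteoclast fusion gene *Ocstamp* from 0.585 and 0.140 CPM to 33.0 and 58.6 CPM. The ADP-ribosyltransferase pseudogene *Art2a-ps* rose from 1.76 and 1.82 CPM to 494 and 313 CPM. *Gkn3* and *Tff2*, secreted products of gastric and duodenal gland cells, were uneven, at 196 and 7.96 CPM and 86.9 and 21.6 CPM in the EED-KO libraries and under 1 CPM in each WT library. *Rhov*, a small GTPase, had 2 counts over the WT libraries and 336 in EED-KO, a 205-fold ratio (95% counting interval 56.3 to 1699). *Rnase2a*, a ribonuclease of the eosinophil family, had 3 counts in WT and 35 and 313 in the EED-KO libraries, which were uneven at 3.51 and 24.2 CPM. Its ratio over both libraries was 142-fold (48.0 to 689.6). These intervals cover counting error only. *Cdh10*, a cadherin, stood out in the first WT library, with 47.7 and 0.841 CPM in WT and none in EED-KO, which is at least 181-fold lower against a floor of 3 counts over the group, and its call was lost without that library (adjusted p = 0.09) and without either EED-KO library.

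**Figure D5:**
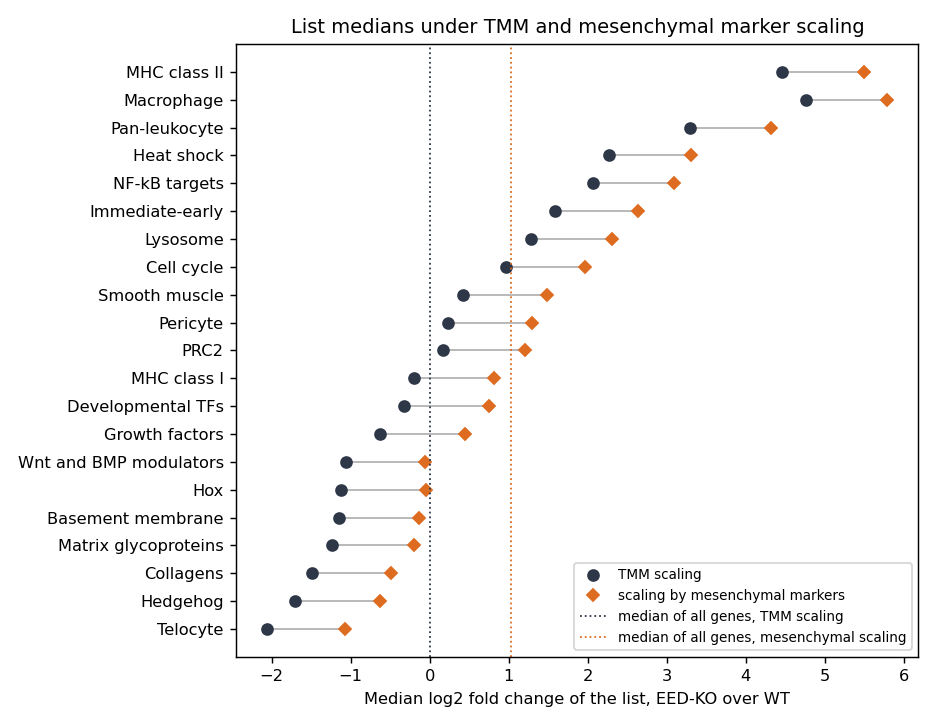
Median log2 fold change of 21 gene lists, EED-KO over WT, under TMM scaling (circles) and with libraries scaled by the mesenchymal list (diamonds); dotted lines mark the median of all genes on each scale, 0.00 and 1.03. Every list moves right by a like amount, and among those drawn the telocyte (-1.07) and Hedgehog (-0.64) medians are the lowest on both scales.

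The distance of each group from 0 rests on the scale, as the plot of list medians shows. On the mesenchymal scale the macrophage median was 5.79, that of heat shock genes 3.31, that of PRC2 genes 1.21 and that of the modulators of Wnt and BMP signalling -0.06, against 1.03 for all genes. *Eed* stood at 0.72 on that scale, 0.31 below the median of all genes.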

How the data were processed

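RNA-seq counts were deposited by the authors as whole numbers of reads per gene, unnormalized. Per the labels, reads were trimmed with Trimmomatic 0.32 and aligned to GRCm38 with STAR 2.5.1b. Per the file headers, they were counted on a GENCODE annotation with featureCounts 1.5.0 (the methods of the study give a later version for adult data), without strand. Spike-in rows (99 transcripts) were set aside. edgeR 4.0.16 (TMM, filterByExpr, quasi-likelihood test, Benjamini-Hochberg adjustment) was fitted to the 4 adult libraries in R 4.3.3. This keeps 15039 of 43280 genes and leaves 2 residual degrees of freedom before sharing across genes, and the biological coefficient of variation was 29.1%. Calls required an adjusted p under 0.05 and a change of more than 1 log2 unit. The fit was tested on simulated data. Within a group, libraries differed beyond sampling noise in 51.0% (WT) and 55.1% (EED-KO) of genes, so no library was taken for a repeat deposit of another. This does not show that they came from different animals.

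The 50 gene lists and the libraries compared were chosen with earlier results of these data known. Genes named were Eed, the 12 most changed in each direction among those averaging 5 CPM or more without overlap of the groups, and from each list up to 4 of the most abundant and 3 of the most changed members. Outside this rule, and chosen after their values were seen, were Adamts1, C1ra, C1s1, C4b, C5ar1, C6, C7, Cd3e, Cd79a, Cdh5, Cdkn2a, Cfp, Ciita, Csf1r, Cxcl14, Dnaja1, Ebf1, Epcam, Ezh2, Flt3, Grem1, Hspb1, Hspe1, Hsph1, Il34, Ly6c2, Mertk, Mfap5, Mmp11, Mmp3, Mvk, Pdgfa, Pdgfc, Pdgfrb, Plau, Ramp2, Rspo3, Sox9, Suz12, Tnfsf13b, Top2a and Zbtb46, and the genes of the closing observations. A few genes that the rule selects are not reported here. Alternatives were DESeq2 1.42.0, alone and with 1 RUVg factor from spike-ins, other scalings, no filter on low counts, a replicate block, and each library left out. Promoter sequences are from RefSeq on GRCm38.p6, first entry per gene.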

Additional observations from a re-analysis of the deposited data

How the results depend on the processing

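The direction and number of calls rested on the scale more than on the tool. With libraries scaled by spike-in totals 1154 genes were higher and 1321 lower, so 46.6% of calls were higher against 63.04% under TMM. With libraries scaled by the mesenchymal list 6197 were higher and 195 lower, a share of 96.9%. DESeq2 called 1970 higher and 1146 lower, and without a filter on low counts, which tests 25231 genes, 2289 were higher and 1502 lower. With DESeq2 and 1 factor from the spike-ins the counts were 1736 and 785, and with TMM factors computed without immune genes they were 1862 and 1082. Leaving out 1 library gave 1469 to 1765 genes higher and 688 to 1211 lower. The lowest counts of lower genes came without the first WT library (689) and without the second EED-KO library (688), which leave 1 library in a group that is then assumed to vary like the other. The cause of these moves was not tested.

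Replicate numbers are shared between the groups, but samples of one number did not deviate together (correlation of deviations -0.06), so they share only a number. With the replicate block 1780 genes were higher and 1000 lower.

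The ratio of the summed MHC class II and macrophage share, 22.4, moved by less than 1.5 times without any one library, alternatives added after the data were seen. *Eed* lay 0.23 to 0.42 below the median log2 fold change of all genes under all 12 alternatives, with no adjusted p under 0.05. Of 202 named genes that were called, 116 were called under all 12 alternatives and 159 under all but the scalings by spike-in totals and by the mesenchymal list, and none changed sign relative to the median of all genes. At 2 libraries a group, a difference that was not called may be one that this depth of replication could not detect.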

Other observations

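Genes below were picked after their values were seen. Of 16 clock genes, 5 rose and 1 fell, against 12.3% and 7.23% of all genes. The rest were not called, with log2 fold changes from -0.65 (*Npas2*) to 0.96 (*Bhlhe41*). Among them *Per2*, *Clock*, *Cry1* and *Cry2* were below 0, and *Per3*, *Dbp*, *Tef* and *Hlf* above it. *Ciart*, a repressor within the clock, had 0.585 and 0.631 CPM in WT and 26.9 and 38.6 CPM in EED-KO (log2 fold change 5.73 ± 0.37 (SE), adjusted p = 1.46e-04). *Nr1d1*, which encodes REV-ERB alpha, had 3.66 and 4.55 CPM in WT and 60.8 and 51.9 CPM in EED-KO. *Arntl*, the activator that REV-ERB represses, went the other way, from 68.9 and 49.8 CPM to 27.2 and 18.5 CPM (log2 fold change -1.38 ± 0.27 (SE), adjusted p = 0.012). The other genes that rose were *Nr1d2*, *Per1* and *Bhlhe40*. No time of day is given for the libraries in the labels.

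*Mdm2*, the ligase that limits p53, rose from 29.5 and 21.4 CPM to 179 and 283 CPM, *Pmaip1*, the death factor NOXA, from 10.3 and 11.6 CPM to 469 and 379 CPM (log2 fold change 5.27 ± 0.24 (SE), adjusted p = 1.24e-04), and *Gdf15*, a stress-induced cytokine, from 7.83 and 9.46 CPM to 145 and 143 CPM. *Hmox1*, which breaks down heme, rose from 10.8 and 9.18 CPM to 163 and 194 CPM, and *Apoe*, a lipid carrier of macrophages and other cells, from 1689 and 2527 CPM to 27678 and 39262 CPM.

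Among stromal genes outside the lists, *Igfbp3*, which binds insulin-like growth factors, fell from 154 and 175 CPM to 34.5 and 27.4 CPM (log2 fold change -2.41 ± 0.22 (SE), adjusted p = 5.00e-04). *Cdh11*, the cadherin of fibroblasts, fell from 148 and 133 CPM to 32.4 and 20.3 CPM, and *Lrat*, which stores retinol as esters, from 252 and 206 CPM to 65.6 and 27.8 CPM. The copies related to *Naip2* were sparse, with *Naip5* at 0.146 and 0 CPM in WT and 7.73 and 3.25 CPM in EED-KO and *Naip6* at 1.10 and 0.280 CPM in WT and 4.62 and 3.87 CPM in EED-KO.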
